A study of Rattus norvegicus with 6 samples.

Results

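The interferon regulatory factors (IRFs) are a family of transcription factors that bind a shared DNA element through a conserved domain and switch on the antiviral and immune genes of the interferon response. Irf3 and Irf7 are phosphorylated downstream of nucleic acid sensors and induce the interferon genes. Irf9 joins Stat2 in the complex that carries the signal of the type I interferon receptor to its target genes, and Irf7 is itself a target of that complex. Irf1 and Irf2 act on overlapping target promoters, Irf1 as an activator and Irf2 mainly as a repressor, while Irf4, Irf5 and Irf8 are known mostly from leukocytes.

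The members were the 8 genes Irf1, Irf2, Irf3, Irf4, Irf5, Irf7, Irf8 and Irf9, looked up by exact name among 27321 features in RNA-seq libraries from rat kidney inner medulla. Exact names were found for 7 of the 8, and Irf3 was counted only in a feature that merges it with the overlapping gene Bcl2l12. The tissue was the IM tip, the terminal part of the inner medulla, from male Sprague-Dawley rats aged 3 months. The control group of 3 rats received vehicle (citrate buffer) through the tail vein, and the STZ group of 3 rats received streptozotocin, a toxin of pancreatic beta cells used to model insulin-deficient diabetes, at a dose of 62.5 mg/kg. Both groups were killed 15 days after injection. Each library came from a separate rat. Reads on features numbered 4657450, 5575171 and 3412311 for control rats 1, 2 and 3. The STZ rats had 5014659, 4475648 and 3963074, in the same order of numbers, and values are given in that order throughout. Values are normalized counts, meaning reads divided by the size factor of the library, and every log2 fold change sets STZ against control after 1 was added to each value, which makes the change of low genes look smaller. The control libraries were all sequenced in lane 3 and the STZ libraries in lanes 7, 6 and 8, which leaves lane and treatment so tied that they cannot be told apart.

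Of the 5 members that could be tested singly, 0 passed limma at an adjusted p under 0.05, while 2 had an unadjusted p under 0.05, as did 1988 of the 13486 features tested. Over all these features, 125 (0.927%) passed with a lower value in STZ and 158 (1.17%) with a higher value. On reads recovered from the normalized counts, edgeR called 0 members among 287 features and DESeq2 called 1, Irf1, among 597. Irf7 and Irf1 had all 3 STZ values below all 3 control values, a pattern found in 10.3% of all features tested, and the merged Irf3 feature had the opposite pattern, found in 10.1%. Irf2, Irf5 and Irf9 overlapped between the groups, and Irf4 and Irf8 lay at the floor of detection. Fewer cells of a type and less RNA per cell cannot be told apart in these bulk libraries.

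Irf7, the interferon-inducible factor that amplifies interferon production, lay at chr1:201456691-201459756 on rn4. Its normalized counts were 1324, 4294 and 2204 in the control rats and 448, 1222 and 503 in the STZ rats. Replicate 2 was the highest in each group, and its STZ value came close to the lowest control value without reaching it. The group means were 2607 ± 1526 (SD, n = 3) in control and 724 ± 432 (SD, n = 3) in STZ. The log2 fold change was -1.83 (SE 0.44, 95% interval -2.80 to -0.87), with an adjusted p of 0.0591 in limma, which missed the threshold. Across 18 alternative settings the adjusted p ranged from 0.00509 to 0.248 and passed in 6. Without control replicate 1 the log2 fold change was -2.24 with a limma adjusted p of 0.0402, and without STZ replicate 2 it was -2.29 with 0.0318. Leaving out any other single library gave a limma adjusted p between 0.0681 and 0.229.

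The neighbours of Irf7 on chromosome 1, chosen after values were seen, did not share a single pattern. Phrf1, which ends 489 bases before Irf7, had 122, 81.6 and 131 normalized counts in the control libraries and 116, 177 and 134 in the STZ libraries, with overlapping groups. Mucdhl, a cadherin-like gene that begins 2664 bases after Irf7, had 35, 124 and 37 reads in the control libraries and 14, 11 and 5 reads in the STZ libraries, and its normalized counts averaged 57.2 ± 32.5 (SD, n = 3) in control and 9.63 ± 4.13 (SD, n = 3) in STZ. Mucdhl fell, with a log2 fold change of -2.40 (SE 0.44) and a limma adjusted p of 0.0212, although its value in STZ replicate 3 lay below the 95th percentile of olfactory receptor features there (9.03), used as a background. It missed the threshold without control replicate 2, STZ replicate 2 or STZ replicate 3, where its limma adjusted p lay between 0.0540 and 0.130, and without the intensity trend, where it was 0.143.

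Irf9, the DNA-binding subunit of the complex formed with Stat2, lay at chr15:33739754-33744957. Its normalized counts were 214, 378 and 161 in the control rats and 277, 352 and 222 in the STZ rats. The highest and the lowest of the 6 values were both control values, and the STZ values lay between them. The group means were 251 ± 113 (SD, n = 3) and 284 ± 65.4 (SD, n = 3). The log2 fold change was 0.24 (SE 0.30, 95% interval -0.42 to 0.90), with a limma adjusted p of 0.825, and it was -0.03 without control replicate 3 and 0.58 without control replicate 2. Rnf31, which ends 550 bases before Irf9, had 39.0, 39.7 and 32.3 normalized counts in the control libraries and 35.3, 41.5 and 59.2 in the STZ libraries.

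Irf1, an activator induced by interferon gamma, lay at chr10:39220599-39227698. It had 374, 494 and 321 normalized counts in the control libraries and 188, 212 and 284 in the STZ libraries. Every STZ value was below every control value, with the closest approach between STZ replicate 3 and control replicate 3. The log2 fold change was -0.79 (SE 0.23, 95% interval -1.29 to -0.30) with a limma adjusted p of 0.112. The adjusted p over 18 alternatives ranged from 0.0302, given by DESeq2, to 0.375.

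Irf2, the repressor of the same target promoters, lay at chr16:48671833-48725515. It had 30.8, 20.6 and 26.7 normalized counts in the control libraries and 26.0, 31.7 and 27.1 in the STZ libraries. These values were low and overlapped. The log2 fold change was 0.13 (SE 0.28, 95% interval -0.50 to 0.75) with a limma adjusted p of 0.918, and it was -0.03 without control replicate 2.

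The merged feature of Irf3 and Bcl2l12 lay at chr1:95462428-95475077, and its reads cannot be assigned to either gene. It had 176, 184 and 125 normalized counts in the control libraries and 318, 246 and 226 in the STZ libraries. All STZ values were above all control values. The log2 fold change was 0.71 (SE 0.22, 95% interval 0.22 to 1.19) with a limma adjusted p of 0.143.

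Irf5, which acts downstream of Toll-like receptors in myeloid and B cells, lay at chr4:56407559-56418694. It had 3.08, 8.39 and 5.57 normalized counts in the control libraries and 5.57, 3.96 and 9.03 in the STZ libraries, and exceeded the floor of 3 reads in 5 of the 6. The 95th percentile of 892 olfactory receptor features, the background named above, was 2.05, 6.10 and 8.90 in the control libraries and 1.86, 5.93 and 9.03 in the STZ libraries, and Irf5 exceeded it in 3 of the 6. Its log2 fold change of 0.13 (SE 0.64) had a 95% interval from -1.27 to 1.53, which includes changes of either sign. The sign turned without control replicate 1 (-0.19) and without STZ replicate 3 (-0.14). Irf4, a factor of lymphocytes, lay at chr17:40170408-40189976 and had 1, 0 and 0 reads in the control libraries and 1, 2 and 0 in the STZ libraries. Irf8, a factor of myeloid and dendritic cells, lay at chr19:51100087-51116730 and had 1, 1 and 0 reads in the control libraries and 0, 1 and 2 in the STZ libraries. Irf4 and Irf8 thus did not exceed the floor of 3 reads in any of the 6 libraries and were not tested.

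**Figure D1:**
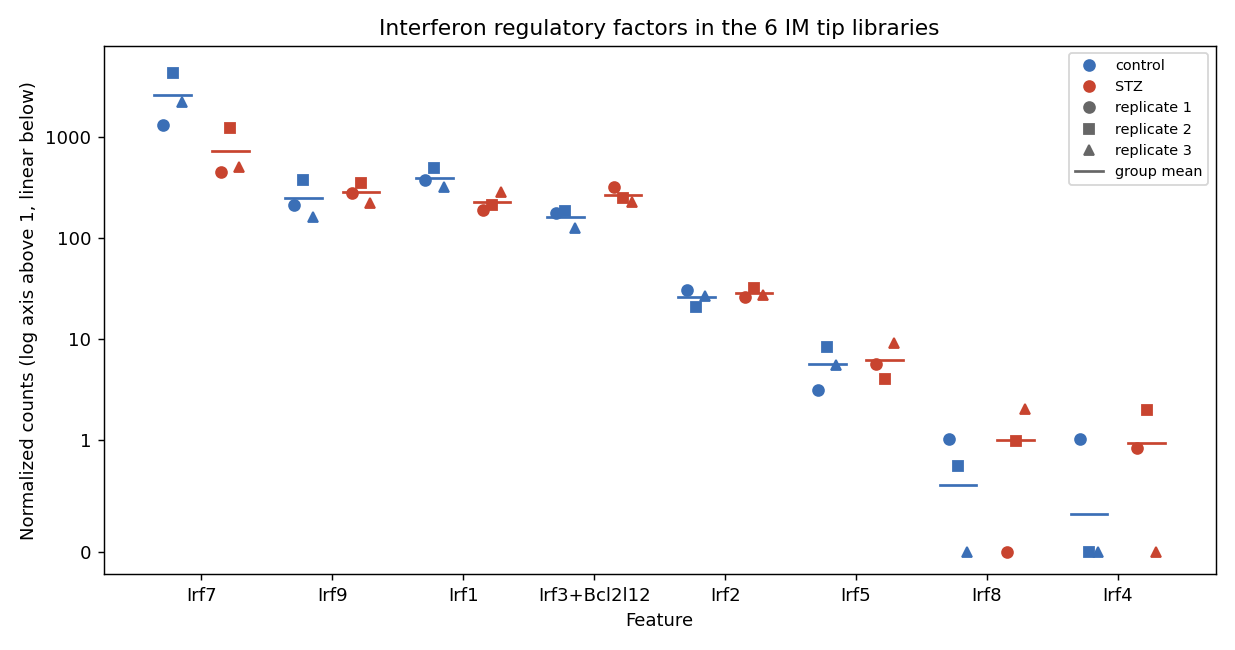
Normalized counts (vertical axis, log above 1 and linear below) of the 7 members found by exact name and of the merged Irf3 feature in 3 control and 3 STZ libraries, with the shape giving the replicate and the line the group mean. Irf7 lies between 1324 and 4294 in control and between 448 and 1222 in STZ, while Irf9 overlaps between the groups.

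Irf7 and Irf9 were compared with each other and with the other members within each library, as a difference of log2(normalized count + 1). Differences between genes also depend on transcript length, so only the shift of each difference between the groups is compared here. Irf7 minus Irf9 was 2.62, 3.50 and 3.76 in the control rats against 0.69, 1.79 and 1.18 in the STZ rats. The groups did not overlap, and the mean difference went from 3.30 ± 0.60 (SD, n = 3) to 1.22 ± 0.55 (SD, n = 3), a shift of -2.08. The two-sided exact permutation p was 0.1, the smallest that 3 against 3 libraries allow, and 0.186 after Benjamini-Hochberg adjustment over the 13 pairs. Irf7 had like differences between the groups against Irf2 (-1.96), Irf5 (-1.96) and the merged Irf3 feature (-2.54), each with an exact permutation p of 0.1 and non-overlapping differences. Against Irf1 the value was -1.04, the differences overlapped, and the exact permutation p was 0.2. Irf9 against Irf1 gave 1.03 with an exact permutation p of 0.1, and its differences from Irf2 (0.11) and from the merged Irf3 feature (-0.47) overlapped between the groups. None of the 13 pairs could pass a threshold of 0.05 with these numbers of libraries. The pairs with Irf7 all reuse the same Irf7 values and are not separate observations. Irf2, Irf5 and Irf9 had log2 fold changes of 0.13, 0.13 and 0.24, so their pairs largely repeat the -1.83 of Irf7. Irf5 also lay near the olfactory receptor background.

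Over the 6 libraries, Irf7 and Irf9 were only weakly alike, with a Pearson r of 0.18 and a Spearman rho of 0.03 of log2(normalized count + 1). Leaving out the libraries farthest from the median of Irf7, control replicate 2 and STZ replicate 1, turned the sign of this r to -0.31, and leaving out those farthest from the median of Irf9, control replicates 2 and 3, gave 0.17. After each group mean was subtracted, r was 0.72 over the 6 libraries, with replicate 2 highest for both genes in both groups. Irf7 had an r of 0.78 with Irf1, which was 0.30 after the group means were subtracted. These values are descriptions over 6 libraries that share 2 conditions.

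The feature most like Irf7 among 9314 others with a mean of at least 20 was Stat2, a partner of Irf9, at a Pearson r of 0.991 over 6 libraries and 0.980 after the group means were subtracted. Without control replicate 2 and STZ replicate 1 its r was 0.988. Stat2 had 658, 1030 and 740 normalized counts in the control libraries and 472, 650 and 456 in the STZ libraries. Its values were ordered across the libraries almost as those of Irf7 were, over a narrower range. The log2 fold change of Stat2 was -0.61 (SE 0.22) with a limma adjusted p of 0.213, so it did not pass. The next features were Sp100, a nuclear body protein, at 0.989, D4A6I2_RAT at 0.989, Pla2g15, a lysosomal phospholipase, at 0.988, and the merged feature of Spns2 and Mybbp1a at 0.985. The features most like Irf9 were Gltpd1 (r 0.972), Itfg3 (0.970), Fbxo34 (0.952), Gphn (0.951) and Crat (0.951). Over the 32 targets of interferon signalling among these features, the median r was 0.908 with Irf7 and 0.175 with Irf9, against -0.05 and 0.06 over all features. For Ifit3, Mx2, Isg15 and Lgals3bp, the r with Irf9 was -0.04, 0.11, 0.18 and 0.66 over the 6 libraries. After the group means were subtracted it was 0.57, 0.63, 0.69 and 0.77, against 0.84, 0.82, 0.87 and 0.87 with Irf7. Mx1, also among the targets, was at 0.16 with Irf7 and 0.82 with Irf9. After the group means were subtracted these were 0.79 and 0.80. Irf9 and Stat2 had an r of 0.29, and 0.84 after the group means were subtracted.

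**Figure D2:**
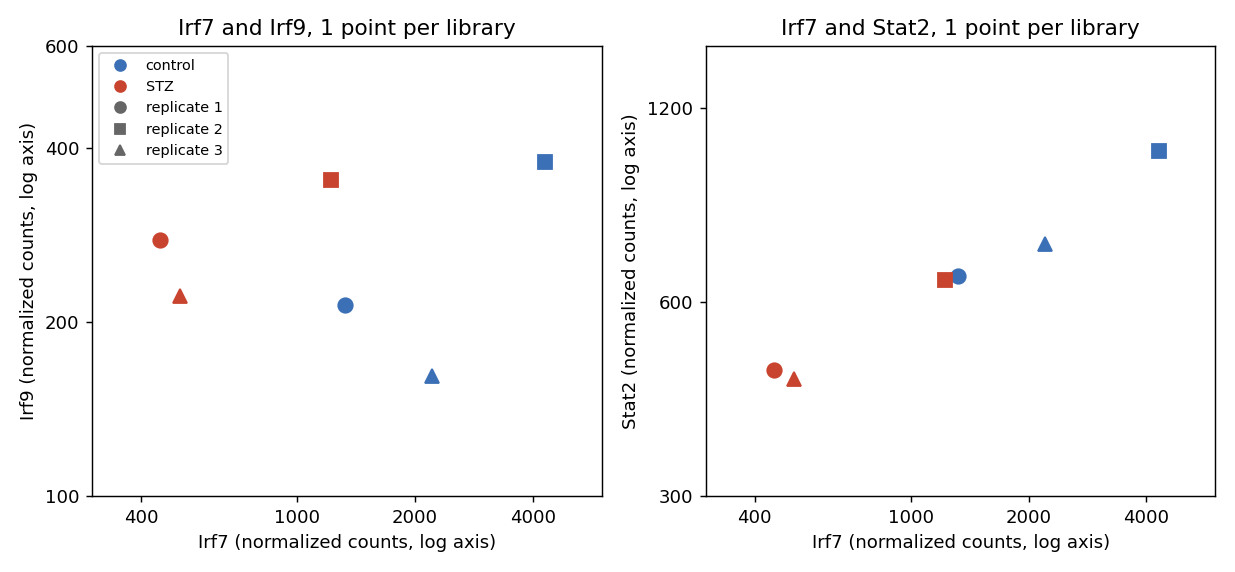
Irf9 (left) and Stat2 (right) against Irf7 in normalized counts on log axes, with 1 point per library, blue for control and red for STZ, and the shape giving the replicate. Stat2, shown because it had the highest r with Irf7 of 9314 features, has an r of 0.991, and Irf9 has 0.18, or 0.72 after the group means were subtracted.

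Upstream of the family, the interferon genes Ifnb1, Ifna1, Ifng and Ifnk did not exceed the floor of 3 reads in any of the 6 libraries. The interferon genes Ifna2, Ifna4 and Ifnl1 and the receptor genes Ifnar2 and Ifnlr1 had no match by name and were not analysed. Of 8 interferon and receptor genes matched by name, 4 were tested and 0 passed limma in either direction, with a median log2 fold change of 0.02 against 0.01 over all features. Ifngr1, a subunit of the interferon gamma receptor and the highest of the list, had 530, 526 and 479 normalized counts in the control libraries and 479, 434 and 461 in the STZ libraries. Of the signalling genes Jak1, Jak2, Stat2 and Stat3, 0 of 4 passed, with a median of 0.21. Tyk2 was not analysed here.

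Among the sensors and adaptors that activate Irf3 and Irf7, 1 of 15 tested genes passed limma and was lower, 0 were higher, and the median log2 fold change was -0.29. The gene that fell was Ddx58, which encodes the RNA sensor RIG-I and is itself induced by interferon. It had 408, 587 and 408 normalized counts in the control libraries and 244, 262 and 233 in the STZ libraries, with no overlap. Its log2 fold change was -0.90 (SE 0.20) with a limma adjusted p of 0.0449, and it passed in 1 of the 6 fits that left out a library, the one without control replicate 3, with an adjusted p between 0.0614 and 0.194 in the others, and of 0.184 without the intensity trend. Tbk1, a kinase of Irf3 and Irf7, had 287, 246 and 196 normalized counts in the control libraries and 211, 209 and 171 in the STZ libraries. Ikbke, the related kinase, had 31.8, 42.7 and 21.1 in the control libraries and 65.9, 65.3 and 44.2 in the STZ libraries. Only Ikbke of the pair had non-overlapping groups, at a log2 fold change of 0.89 (SE 0.30) with a limma adjusted p of 0.184, against -0.29 (SE 0.20) and 0.586 for Tbk1. Mavs, the mitochondrial adaptor of RNA sensors, had a log2 fold change of -0.32 (SE 0.23) with a limma adjusted p of 0.593. Myd88, the adaptor of Toll-like receptors, had a log2 fold change of -0.002 (SE 0.30) with a limma adjusted p of 0.999, and the sign turned without control replicate 1 (0.04), control replicate 2 (0.25) or STZ replicate 3 (0.26). Tank, a scaffold of these kinases and the highest gene of the list, had 426, 405 and 453 normalized counts in the control libraries and 754, 504 and 517 in the STZ libraries.

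Of the negative regulators of the pathway, 0 of 8 tested passed in limma, with a median log2 fold change of -0.13. Usp18 had the lowest log2 fold change of these, -1.65 (SE 0.51), with overlapping groups. Its limma adjusted p was 0.140, and it passed in 3 of 18 alternatives. Of the partners of Irf4 and Irf8, 0 of 3 tested passed, with a median of -0.28, and the highest was Ets1 with a mean of 205 normalized counts over the 6 libraries. Tax1bp1 was the highest of the negative regulators, with a mean of 1560.

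Among the targets of interferon signalling, 5 of 33 tested genes fell and 0 rose in limma, 29 had a log2 fold change below 0, as did 49.5% of all features tested, and the median was -0.91 against 0.01 over all features. The list was chosen with earlier results of these data known, so this comparison with all features is only a description. Ifit2 had 298, 659 and 350 normalized counts in the control libraries and 60.4, 99.9 and 119 in the STZ libraries. Ifit3, which like Ifit2 encodes an antiviral protein with tetratricopeptide repeats, had 315, 681 and 362 in the control libraries and 39.0, 107 and 85.3 in the STZ libraries. Both were lower in every STZ library than in any control library, with log2 fold changes of -2.18 (SE 0.32) and -2.57 (SE 0.38) and limma adjusted p-values of 0.00754 and 0.00704. The other genes that fell were Ube2l6, the conjugating enzyme of Isg15, at -1.38 (SE 0.24), Mx2, an antiviral GTPase, at -1.77 (SE 0.40), and Isg20, an exonuclease, at -1.75 (SE 0.39), with limma adjusted p-values of 0.0180, 0.0489 and 0.0489. Ifit2 and Ifit3 passed in all 6 fits that left out a library, but both were lost without the intensity trend of limma, at an adjusted p of 0.117 each, and so were the other 3 genes. Isg20 and Mx2 passed only without control replicate 3, with adjusted p-values in the other fits from 0.0507 to 0.219 for Isg20 and from 0.0582 to 0.180 for Mx2. Ube2l6 missed the threshold without control replicate 2, STZ replicate 1 or STZ replicate 3, at adjusted p-values from 0.0534 to 0.0759. The count of 5 was 3 without control replicate 2 and 2 without STZ replicate 1 or STZ replicate 3, and edgeR gave 3 where DESeq2 gave 11. Ifitm2, the highest gene of the list, had 14622, 12808 and 12039 normalized counts in the control libraries and 10596, 12741 and 8661 in the STZ libraries, which overlapped. Oas1f had the highest log2 fold change of those tested, 1.69 (SE 0.84), with a limma adjusted p of 0.392. It had 13.3, 29.0 and 13.4 normalized counts in the control libraries and 19.5, 348 and 28.1 in the STZ libraries. Ifit1, at -1.70 (SE 0.88) with a limma adjusted p of 0.412, had 215, 12.2 and 252 against 30.6, 33.6 and 18.1. The study listed Oas1f among its raised genes and Ifit1 among its lowered ones.

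Replicate 2 was the highest control library for 30 of these 33 genes and the highest STZ library for 27 of them. Over all features tested, it was the highest control library for 25.1% and the highest STZ library for 27.9%. The part of these libraries in the spread of Irf7 and its targets was not tested.

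Among targets of Irf1 and interferon gamma, 4 of 22 tested genes fell and 0 rose in limma, with a median log2 fold change of -0.45. Il15, a cytokine, had 651, 747 and 532 normalized counts in the control libraries and 259, 251 and 218 in the STZ libraries. Its log2 fold change was -1.39 (SE 0.19) with a limma adjusted p of 0.00548, and it passed in all 6 fits that left out a library. Without the intensity trend its adjusted p was 0.0840, and none of the 4 genes passed. Gbp5, a guanylate-binding protein, Cxcl10, a chemokine, and Cd274, the ligand of the receptor PD-1, fell by 1.64, 1.64 and 2.16 on the log2 scale, with limma adjusted p-values of 0.0207, 0.0446 and 0.0469. In STZ replicate 2, Cd274 lay below the olfactory receptor background. Gbp5 missed the threshold without control replicate 1, control replicate 2 or STZ replicate 2, at 0.0540 to 0.108, and Cd274 without control replicate 1, control replicate 2, STZ replicate 1 or STZ replicate 2, at 0.0716 to 0.247. Cxcl10 missed it without control replicate 2 or any single STZ library, at 0.0574 to 0.134. The count of 4 was 2 without control replicate 1 or STZ replicate 1 and 1 without control replicate 2 or STZ replicate 2. B2m, the light chain of MHC class I and the highest gene of the list, had 5431, 7844 and 5405 normalized counts in the control libraries and 4005, 4068 and 5136 in the STZ libraries, without overlap.

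**Figure D3:**
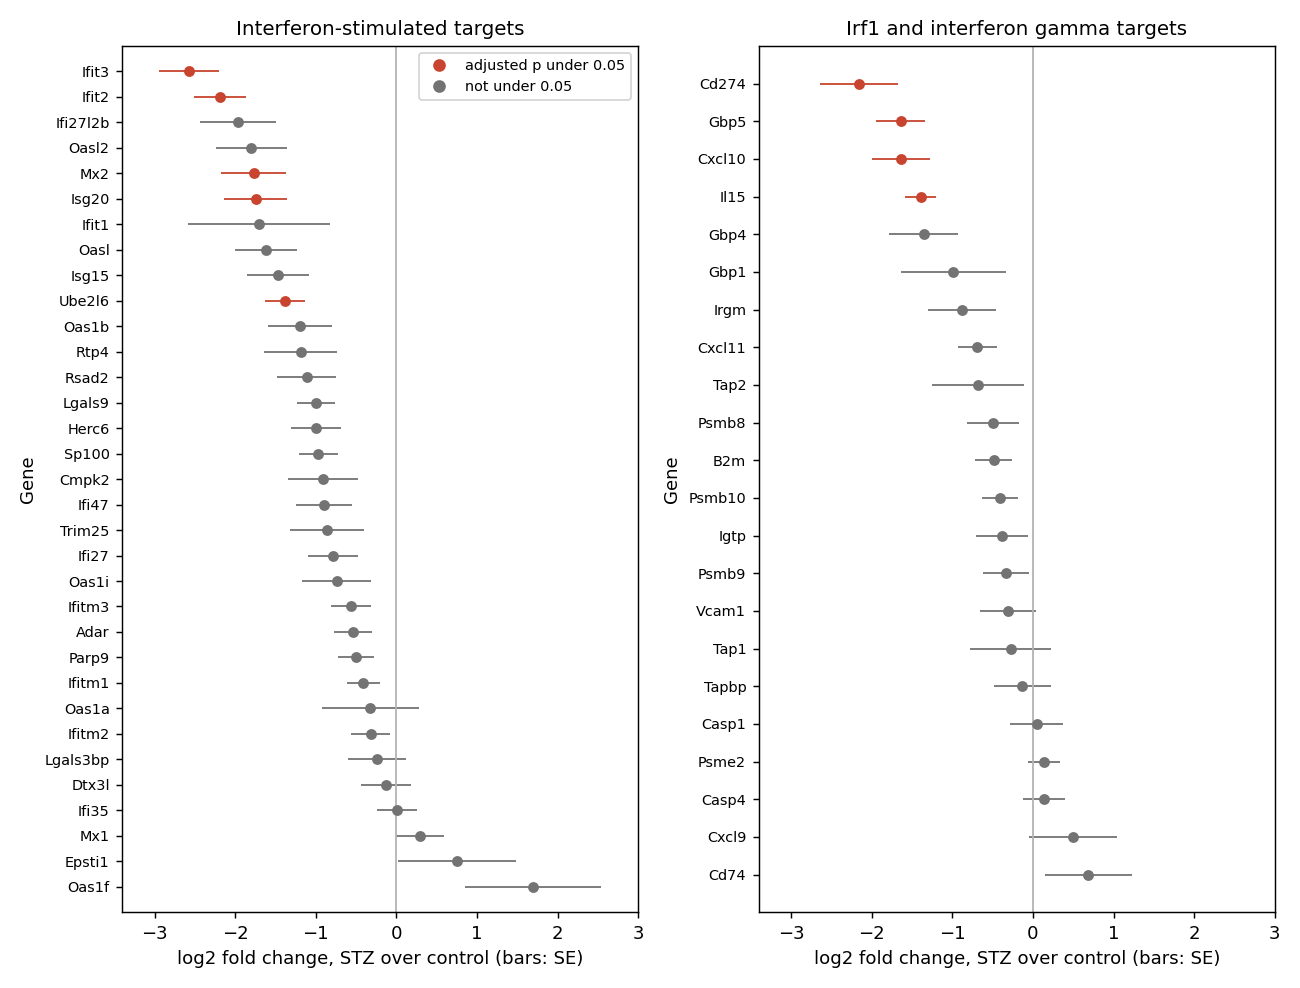
Horizontal axis, the log2 fold change of STZ over control with its SE, for the tested genes of the interferon-stimulated targets (left) and of the targets of Irf1 and interferon gamma (right), with red marking a limma adjusted p under 0.05. Of the genes on the left 29 of 33 lie below 0, where 49.5% of all features tested lie, and 5 passed, and 4 of 22 passed on the right. Both lists were chosen with earlier results of these data known.

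Promoter sequences were matched by symbol for 7 of the 8 members in RefSeq on GRCr8, and none was matched for Irf2. The motif searched was GAAA, any 2 bases and GAAA again, the core of the element that IRFs bind, on both strands of the 250 bases before each start. It occurred in 3.41% of the 33469 promoters of that length. Of the 7 members, 1 held it, which was Irf7. The promoters of Irf7 and Irf9 are shown because the comparison turns on this pair. That of Irf7 is chr1:205800024-205800273 on the minus strand and that of Irf9 is chr15:33065586-33065835 on the plus strand, each 5′ to 3′ with the motif in capitals, which in Irf7 lies on the opposite strand to that printed.
Irf7: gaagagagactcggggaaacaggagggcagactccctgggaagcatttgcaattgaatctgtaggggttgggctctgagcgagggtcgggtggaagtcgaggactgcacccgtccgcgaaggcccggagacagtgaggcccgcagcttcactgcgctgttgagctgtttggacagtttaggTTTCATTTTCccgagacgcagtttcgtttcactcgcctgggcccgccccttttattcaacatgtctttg
Irf9: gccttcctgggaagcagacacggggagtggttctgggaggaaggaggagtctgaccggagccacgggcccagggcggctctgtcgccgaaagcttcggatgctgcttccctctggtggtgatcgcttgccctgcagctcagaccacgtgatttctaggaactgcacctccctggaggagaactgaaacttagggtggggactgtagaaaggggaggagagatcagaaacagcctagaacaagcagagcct
The capitals in Irf7 begin 69 bases before the start, and no capitals appear in Irf9 because the letters are not in this window. A match is a description of letters and not a measured site.

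Of the 10 pathway genes that fell, 7 had a promoter entry and 4 of these held the motif. Windows of 30 bases around it are shown for these 4, to be read beside that of Irf7, with the motif in capitals. They lie on the plus strand at chr1:241527272-241527301 (Ifit3), chr1:142239957-142239986 (Isg20), chr2:233910933-233910962 (Gbp5) and chr14:15988816-15988845 (Cxcl10).
Ifit3: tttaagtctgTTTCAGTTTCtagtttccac
Isg20: taatgaaccaGAAACTGAAActaaaacggc
Gbp5: acttgtgtagTTTCAATTTCagtttagagg
Cxcl10: cgctttgGAAAGTGAAActtaactcactca
Ube2l6, Cd274 and Il15 had an entry without the motif, and so did Stat2, the feature most like Irf7. Among all interferon-stimulated targets with an entry, 13 of 24 held it.

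Markers of the tissue and of leukocytes were read in the same libraries. Fxyd4 was the highest of the collecting duct markers, and the summed level of the 7 markers matched was 54600, 47992 and 32773 normalized counts in the control libraries and 81715, 42665 and 62973 in the STZ libraries. Of these 7, 0 passed limma, and the median log2 fold change was 0.79. Leukocyte markers summed to 2454, 2862 and 2301 in the control libraries and 2758, 2736 and 1926 in the STZ libraries, most of it from Cd48. Ptprc, the common leukocyte antigen, had 35.9, 70.2 and 118 normalized counts in the control libraries and 77.1, 84.1 and 120 in the STZ libraries, with overlapping groups.

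Macrophage and monocyte markers, led by Lyz2, summed to 1061, 2789 and 2185 in the control libraries and 1812, 1732 and 2598 in the STZ libraries, with 0 of 12 passing in limma. Dendritic cell markers, led by Flt3, summed to 15.4, 25.2 and 76.8 in the control libraries and 13.9, 47.5 and 72.3 in the STZ libraries, with 0 of 4 passing and Siglech and Xcr1 at the floor. T and NK cell markers, led by Gzmb, summed to 80.0, 253 and 268 in the control libraries and 70.6, 199 and 172 in the STZ libraries, with 0 of 9 passing. In both groups, replicate 1 had the lowest sum of dendritic, T and NK cell markers and also the lowest olfactory receptor background. Many of these markers lay near that background, and its part in the sums was not tested. B and plasma cell markers, led by Cd79a, summed to 406, 343 and 445 in the control libraries and 347, 344 and 363 in the STZ libraries, with 0 of 2 passing and Ms4a1 at the floor.

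Markers of other kidney segments, led by Slc12a1, summed to 928, 1220 and 1674 in the control libraries and 549, 337 and 223 in the STZ libraries. Of 4 tested, 1 fell, which was Umod, a protein of the thick ascending limb, at a log2 fold change of -2.93 (SE 0.37) and a limma adjusted p of 0.00353, which was 0.0840 without the intensity trend. These markers, like Irf7 and its targets, had their control values above their STZ values as a sum. Endothelial markers, led by Emcn, summed to 8780, 6796 and 7237 in the control libraries and 3895, 4099 and 3695 in the STZ libraries. Without Emcn the sums were 2259, 1612 and 2410 against 1649, 2096 and 1658, which overlapped, although Cdh5 (-0.56) and Tek (-0.61) also had all STZ values below all control values, without passing. Of 5 tested, Emcn fell by 1.38 on the log2 scale and Vwf rose by 1.97, with limma adjusted p-values of 0.00679 and 0.0264, and without the intensity trend 0.0789 and 0.171. Vwf missed the threshold without control replicate 1, control replicate 2, STZ replicate 2 or STZ replicate 3, at limma adjusted p-values from 0.0688 to 0.105. Urothelial markers, led by Upk3a, summed to 101, 79.3 and 124 in the control libraries and 420, 501 and 468 in the STZ libraries, with Upk3a and Upk1b rising by 3.30 and 1.25 on the log2 scale at limma adjusted p-values of 0.000117 and 0.0489. Upk1b passed only without control replicate 3 among the fits that left out a library, with adjusted p-values from 0.0807 to 0.204 in the others. Without the intensity trend Upk3a passed at 0.0167 and Upk1b did not, at 0.169. The part of these shifts in the values of Irf7, Irf1 and their targets was not tested.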

How the data were processed

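RNA from the IM tip of 3 control and 3 STZ rats was made into cDNA with a PCR-based kit by the authors, who aligned reads to rn4 with STAR 2.3.1t and counted uniquely mapped reads per gene. How reads were counted, and whether strand was used, is not given in the sources used here. The deposited signal is each count divided by a DESeq 1.16.0 size factor. Dividing by the step of each library recovered whole reads for 100.0% of values (tolerance 1e-06). No molecular identifiers were used, and the floor of 3 reads covers counting error only. The 95% intervals come from limma and rest on the spread between rats, moderated toward the intensity trend over all features tested.

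The test was that of limma (version 3.58.1, R 4.3.3) with an intensity trend, applied to log2(normalized count + 1) of 13486 features whose mean reached 5, with Benjamini-Hochberg adjustment and a threshold of 0.05. edgeR 4.0.16 and DESeq2 1.42.0 were run on recovered reads as alternatives, and other pseudocounts, filters, normalizations, moderation, a replicate block and single libraries left out were tried. The scripts were tested on simulated data. Within-library differences were compared by two-sided exact permutation tests. Members and gene lists were chosen with earlier results of these data known. Named genes were the members, list genes that passed, the highest gene of each list, and partners and kinases of Irf3, Irf7 and Irf9. Interferons, cell markers and the 5 features most like Irf7 and Irf9 were also named, as were neighbours, Usp18, Oas1f, Ifit1 and targets given with an r. Names were matched in the table and by unambiguous RefSeq synonyms. Figures were drawn with matplotlib 3.10.9, permutation tests were run in scipy 1.17.1, and tables were built in pandas 2.3.3 and numpy 2.4.6 under Python 3.11.15. Some list genes are not reported here.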

Additional observations from a re-analysis of the deposited data

How the results depend on the processing

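Irf7 kept a negative log2 fold change under all 18 alternatives, and its adjusted p passed in 6 of them, at -1.83 with a minimum mean of 20 or no filter and at -1.86 with quantile normalization. Leaving out single libraries moved Irf7 between -2.29 and -1.39, Irf9 between -0.032 and 0.58, Irf2 between -0.025 and 0.25, Irf5 between -0.19 and 0.41 (-0.14 without STZ replicate 3), and Myd88 between -0.30 and 0.26 (0.04 without control replicate 1 and 0.25 without control replicate 2). Irf1 passed in DESeq2 at -0.80. The count of members passing was 1 with a minimum mean of 20, no filter, quantile normalization and DESeq2, and 0 or 1 with a library left out. Features passing numbered 522 with quantile normalization, 31 without the intensity trend, 597 in DESeq2, and from 88 to 352 with a library left out, against 283. Interferon-stimulated targets passing numbered 3 with a pseudocount of 0.5, equal library totals or edgeR, 10 with a minimum mean of 20, 11 with no filter or DESeq2, 0 without the trend, and 2 to 7 with a library left out. Targets of Irf1 and interferon gamma numbered 2 with equal library totals, 0 without the trend, and 1 to 4 with a library left out. With a pseudocount of 5, the changes of Irf9 against Irf4 and Irf8 turned from -0.261 and -0.008 to 0.083 and 0.144, where both other genes are at the floor. Filters change the number of features tested, and the cause of the other moves was not tested.

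Control and STZ libraries share replicate numbers in the labels, which do not say what a number stands for. The study used a paired test for its qPCR, and the olfactory receptor background rose with that number in both groups. Deviations from the group means correlated at 0.395, -0.061 and 0.323 between rats numbered 1, 2 and 3, and control replicate 2 and STZ replicate 2 each correlated better with another number. With the replicate number as a block, 859 features, 2 members and 14 interferon-stimulated targets passed, at log2 fold changes of -1.83 for Irf7, -0.79 for Irf1 and 0.71 for the merged Irf3 feature. At this depth Irf4, Irf8 and the matched interferon genes Ifnb1, Ifna1, Ifng and Ifnk did not exceed the floor of 3 reads. Whether depth or low expression sets this was not tested.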
